A study of Mus musculus with 10 samples.

Results

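The cells described here are the mouse fibroblasts taken on day 6 of chemical reprogramming, listed in the single-cell count table under names that begin with d6p (the meaning of the p is not explained). A minimum of 4000 detected genes per cell kept 86 of the 96 day 6 cells, among 670 of 808 cells of the whole course. The study followed mouse embryonic fibroblasts (MEFs) from E13.5 embryos of ICR mice as a chemical cocktail turned part of them into cells like extraembryonic endoderm (XEN). The cocktail, named C6FAE, holds the GSK3 inhibitor CHIR99021, a TGF-beta receptor inhibitor abbreviated as 6, the adenylate cyclase activator Forskolin, the retinoic acid receptor agonist AM580 and the DOT1L inhibitor EPZ004777, in a medium with serum, serum replacement and bFGF. The study's methods list a medium with valproic acid beside these compounds, whereas its single-cell text names C6FAE, so whether valproic acid was present on day 6 is not settled here. Groups used for comparison were MEFs before the cocktail (d0, 72 kept cells) and cells of day 4 (d4, 77), day 5 (d5, 36), day 8 (d8, 62) and day 20 (d20, 38). Per the study's single-cell text all but d0 are taken as cells under C6FAE. Cell names give no treatment, so the open point on valproic acid holds for these days too.

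Sox17, Sall4, Gata4 and Foxa2 encode transcription factors of the XEN and endoderm lineages, and XEN cells are the counterpart in culture of the layer that forms the yolk sac. Embryonic fibroblasts are mesenchymal cells that secrete collagens and other matrix proteins and are held in this state by regulators such as Prrx1 and Twist2. Fibroblasts also secrete chemokines, small proteins that attract leukocytes, and can take on a contractile state marked by smooth muscle actin.

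Values are whole-number UMI counts, where a unique molecular identifier (UMI) tags each captured RNA molecule, and were scaled to 1000000 UMIs of the cell (CPM) without the ERCC spike-in RNAs. The 86 cells held from 29666 to 6004864 UMIs, with a median of 411772, against medians of 751825 at d5, 676178 at d8 and 344196 at d0. The kept cell nearest the minimum had 4067 detected genes and the removed cell nearest to it 3808. Spike-ins took a median of 3.33% of counts, and in 9 cells they took over 20%, of which 7 are numbered above 48, against 5 such cells at d8 and 0 at d0 and d5. Cell names give a day and a running number but not the sequenced sample, so all cells counted as 1 sample, and no test was made between groups. Cells were picked by hand, and no doublet caller was run. As a check chosen after the values were seen, *Xist* exceeded 50 CPM in 21 cells and the summed Y genes exceeded 20 CPM in 18, with 0 cells in both sets and 47 in neither, so that this check covers fewer cells than it leaves out. Intervals below are exact 95% intervals and cover counting error only.

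The day 6 cells carried the transcripts of fibroblasts. All 14 fibroblast markers of the list reached a mean of 20 CPM, and 11 of them had UMIs in every cell. *Col1a1*, which encodes a chain of type I collagen, ran from 285 to 19558 CPM with a median of 2373, and *Col3a1*, of type III collagen, from 162 to 6789 CPM with a median of 1476. The regulators were as widespread: *Twist1* and *Twist2* had UMIs in 86 cells, with means of 281 and 243 CPM, and *Prrx1* in 85 cells, with a mean of 260 CPM. *Osr1*, a fibroblast and kidney mesenchyme factor, was found in 58 cells with a median of 3.42 and a maximum of 589 CPM. Markers of blood and vessel cells were low, whereas some lists of other tissues were not. All 7 erythroid genes and 6 of 11 macrophage genes had no UMI in any day 6 cell, and the summed macrophage list reached at most 151 CPM in a cell. The summed endothelial list reached at most 99.0 CPM, and the summed epithelial list had a median of 7.12 CPM with a maximum of 1468 CPM in cell 42, described below. The summed neural list had a median of 836 CPM and a maximum of 5569 CPM in cell 70, nearly all of it *Gap43*, known from growing axons, with 5562 CPM there and a mean of 1007 CPM. The summed bone and cartilage list had a median of 231 CPM and a maximum of 20730 CPM in cell 87, mostly *Spp1* with 20483 CPM. The summed adipocyte list had a median of 26.8 CPM and a maximum of 2309 CPM in cell 22, mostly *Lpl*, lipoprotein lipase, with 2308 CPM.

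The 10 genes of the highest mean came from several functions. *Malat1*, a nuclear long RNA, had a mean of 35430 CPM, *Ftl1*, of the iron store ferritin, 14615 CPM, *Tmsb10*, which binds actin monomers, 13316 CPM, and *Lgals1*, a galectin, 13214 CPM. *Rn45s*, *Rpl41*, *Actb* and *Rpl35* followed with between 5234 and 5822 CPM, and *Crabp1*, a cytoplasmic retinoic acid binding protein, had 5231 CPM. *Ctsb*, a lysosomal protease, was the tenth at 5198 CPM. Over 9210 genes, the mean profile of the day 6 cells correlated (Pearson) at 0.962 with d8 cells numbered 1 to 48, 0.957 with d8 cells above 48, 0.928 with d5, 0.862 and 0.881 with d0 in the same number ranges, and 0.756 with d20. At d4 the value was 0.961 for cells numbered 1 to 48 and 0.911 for those above 48. The day 6 cells of these ranges correlated at 0.980 with each other, the points of all these correlations being genes that share the libraries.

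The 5 genes given as markers of the group showed separate patterns. *Ccl8*, a chemokine that attracts monocytes, was found in 86 of 86 cells but was abundant in few. Its level ran from 6.23 to 14697 CPM with a median of 33.0, 22 cells exceeded 100 CPM, 5 exceeded 1000 CPM, and these 5 cells held 77.8% of the summed CPM. The mean was 403 CPM, or 234 CPM without the highest cell, number 39. The highest cell had 10.4 CPM at d0, 165 CPM at d5 and 449 CPM at d8. Expressed as the difference of mean log2(CPM + 1), *Ccl8* was 4.22 higher at day 6 than at d5, 3.34 higher than at d8 and 5.11 higher than at d0.

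A low level of *Ccl8* in every cell stood beside a very high level in a few. Among day 6 cells the lowest value was 6.23 CPM for numbers 1 to 48 and 7.11 CPM above 48. At d4 the cells numbered 1 to 48 showed the same form more strongly, with a lowest level of 49.4 CPM, a median of 64.8 and a highest of 74197 CPM, whereas 9 of 37 cells above 48 had any UMI. *Sst*, the somatostatin precursor, had this form at d8, with UMIs in all 62 cells from 40.6 CPM upward and a highest cell of 117724 CPM. At day 6 *Sst* had UMIs in 50 cells and a maximum of 402 CPM. Whether reads of the highest cells were spread over cells processed beside them was not tested, so the share of cells with a low *Ccl8* level is not a count of cells that express it.

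*Car3*, a carbonic anhydrase of mesenchymal and fat tissue, had UMIs in 75 cells, from 0 to 9625 CPM with a median of 9.08. It exceeded 100 CPM in 18 cells and 1000 CPM in 7, and its mean was 351 CPM, or 242 CPM without cell 31. On the log2 scale it was 3.34 higher than at d5, 3.11 higher than at d8 and 3.67 higher than at d0. At d4, however, 40 of 40 cells numbered 1 to 48 had UMIs, with a median of 13.8 and a highest of 7961 CPM. Of d4 cells above 48, 25 of 37 had UMIs, with a median of 8.14 CPM, so *Car3* was not particular to day 6. The cells numbered 1 to 48 had a mean of 535 CPM and those above 48 a mean of 183 CPM, whereas the medians were 8.63 and 9.53 CPM. The 2 highest cells, 31 and 43 with 9625 and 4990 CPM, both have numbers in the lower range. High *Ccl8* and high *Car3* did not occur in the same cells in any regular way, with a Spearman rho of 0.01 over 86 cells. The 5 genes most correlated with *Ccl8* among 5495 were *Ctsl* (rho 0.457), *S100a13*, *Tpt1*, *Spp1* and *Cyp26b1*, the last at 0.365. For *Car3* they were *Ctxn1* (0.417), *Pabpc1*, *Ehmt1*, *Rps18* and *Hk2*, the last at 0.360. These points share depth and library, and the median over all pairs of genes was 0.070.

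The other 3 markers rested on 1 or 2 cells. *Trpc5*, a cation channel subunit, had UMIs in 34 cells, but cell 26 at 2884 CPM held 68.4% of the summed CPM and cell 49 had 993 CPM. It was 0.67 higher on the log2 scale than at d5, 0.50 than at d8 and 1.15 than at d0. Spike-ins made up 76.3% of the counts of cell 26 and 48.2% of those of cell 49. Without the 9 cells over 20% spike-ins the mean of *Trpc5* was 3.66 CPM, in place of 49.0 CPM. *Lcat*, which esterifies cholesterol, had UMIs in 10 cells, and cell 26 at 1442 CPM (51 UMIs) held 97.4% of the sum, so that the mean was 17.2 CPM with it and 0.46 CPM without it. *Atp12a*, a proton pump subunit, had UMIs in 7 cells. Cell 73 had 1247 CPM (95 UMIs) and cell 74 had 48.3 CPM (121 UMIs), while the mean was 15.1 CPM with cell 73 and 0.64 CPM without it. The plot of levels by cell shows the spread of each of the 5 genes beside XEN genes taken up further on.

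**Figure D1:**
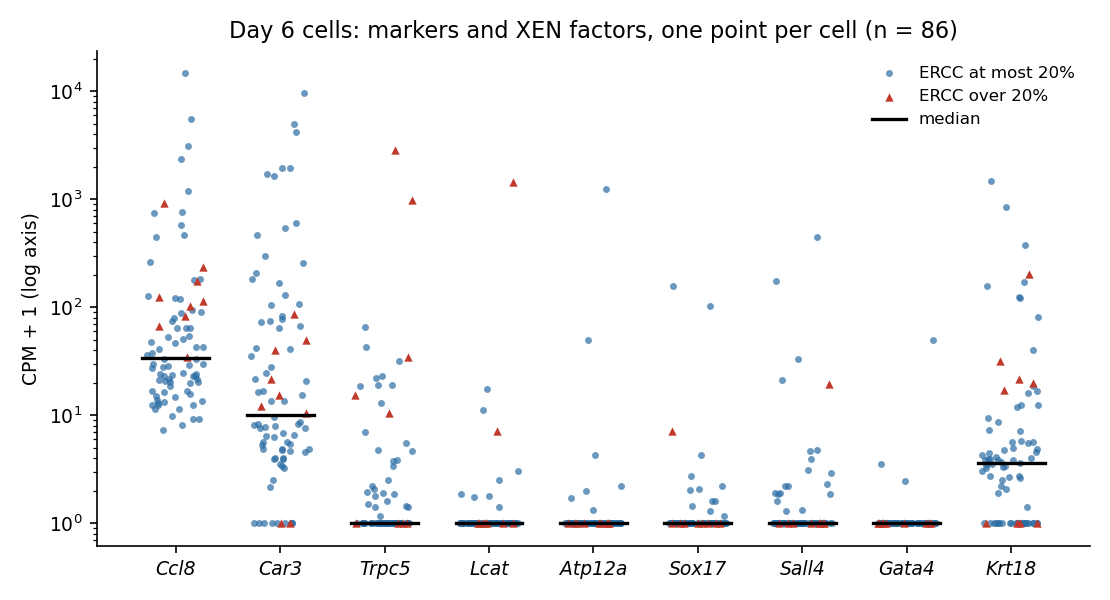
Levels of the 5 given marker genes and of *Sox17*, *Sall4*, *Gata4* and *Krt18* in each of the 86 day 6 cells, as CPM + 1 on a log axis, each point being 1 cell, triangles the cells with over 20% spike-ins and bars the medians. *Ccl8* is above 0 in all cells and *Car3* in 75, whereas *Lcat* and *Atp12a* are high in 1 cell each, at 1442 and 1247 CPM.

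Variation within the group was measured for 5496 genes with a mean of at least 20 CPM and UMIs in at least 10 cells. The squared coefficient of variation beyond counting noise was divided by that of genes of like mean. This variance ratio exceeded 3 for 539 genes, 9.81% of those measured. Many of these were set by 1 cell, since 74 of them had at least 50% of their summed CPM in 1 cell and 238 had their highest level in a cell with over 20% spike-ins. Without those cells, 467 genes exceeded 3, of which 318 were among the 539. Without the highest cell of each gene, 158 of the 539 remained above 3. Cells 60 and 26 were the highest cell of 49 and 47 of these genes, and cells 18 and 64 of 41 each.

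The largest ratios rested on few cells. *Spp1*, the matrix protein osteopontin, had a ratio of 66.4 and rested on cell 87 with 20483 CPM, 67.0% of the sum, against a median of 25.8 CPM. *Ppbp*, a chemokine of platelets, had a ratio of 53.3 and 8632 CPM in cell 4, with 48.9 CPM in the next highest cell. *Ccl7*, a neighbour of *Ccl8*, had a ratio of 31.5, a range from 33.4 to 20334 CPM and its highest level in cell 60. *Ccl12* was highest in the same cell, at 3397 CPM. All 8 chemokines measured for variance had a ratio over 3, beside 9.81% of all measured genes. These chemokines were *Ccl2*, *Ccl7*, *Ccl8*, *Ccl12*, *Cxcl1*, *Cxcl5*, *Cxcl12* and *Cxcl14*. They were not high together: *Ccl7* and *Ccl8* correlated at a rho of 0.294, *Ccl8* and *Ccl12* at 0.113, and *Ccl2* and *Ccl7* at 0.172. *Ccl2* to *Ccl8* lie within 81.2 kb of chromosome 11 (mm9 81849073 to 81930301). *Plekhm1* had a ratio of 24.6 through cell 26 alone, at 1951 CPM.

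**Figure D2:**
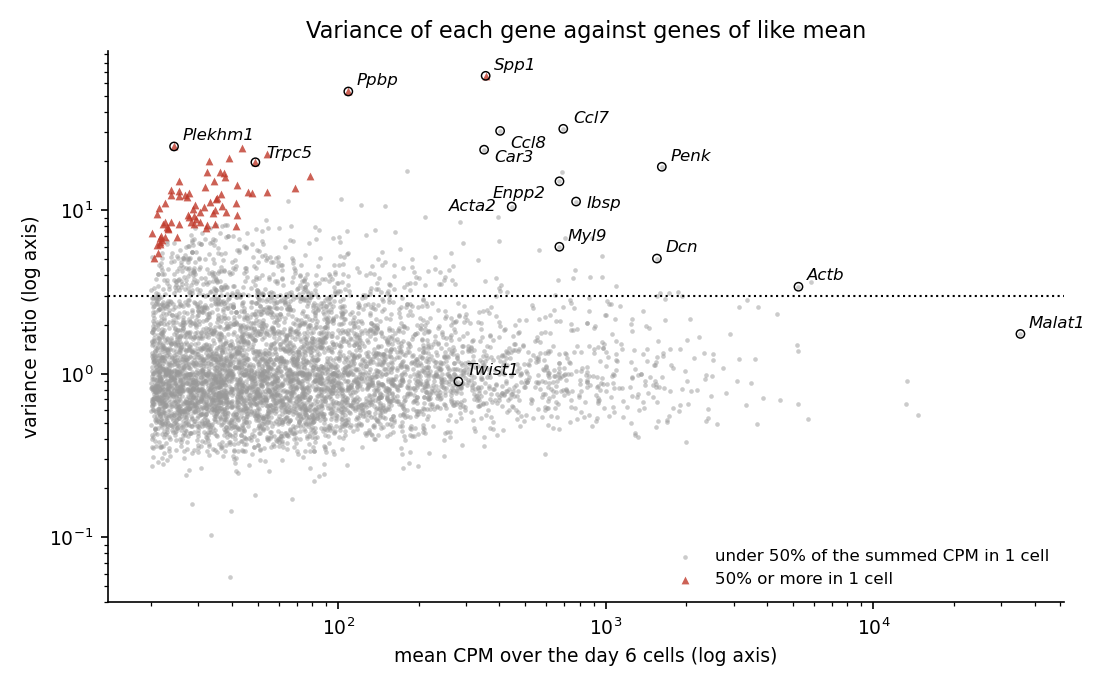
Variance ratio (log axis) against mean level in CPM (log axis) for the measured day 6 genes with a ratio above 0, each point being 1 gene, triangles genes with at least 50% of their summed CPM in 1 cell, circled points the genes labelled by name and the dotted line a ratio of 3. *Spp1* at 66.4 and *Ppbp* at 53.3 are the highest.

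A smaller set combined a high ratio with UMIs in most cells. It comprised 90 genes with a ratio over 3, UMIs in at least 95% of cells and under 25% of the sum in 1 cell. Without the 9 cells over 20% spike-ins, part of this set fell below 3, such as *Sgk1* (5.49 to 2.04) and *Mrpl14* (3.72 to 0.57). *Penk* (22.1), *Ibsp* (13.5) and *Dcn* (5.81) stayed above 3. Like *Ccl8*, the genes *Penk*, *Ecm1*, *Enpp2* and *Ibsp* had a low level in every cell beside a very high level in a few. Whether reads of the highest cells were spread over others was not tested, so the cells with UMIs are not a count of cells that express them. *Penk*, which encodes the precursor of the enkephalin opioid peptides, led it with a ratio of 18.4. Its level ran from 68.8 to 26778 CPM with a median of 338, and 21 cells exceeded 1000 CPM. *Ecm1*, a secreted matrix protein, had a ratio of 17.0 and a range from 47.7 to 13452 CPM around a median of 279. *Enpp2*, which makes lysophosphatidic acid, had a ratio of 15.04 and a range from 14.3 to 12718 CPM around a median of 176. *Ibsp*, a bone matrix sialoprotein, had a ratio of 11.3 and ran from 5.30 to 8260 CPM with quartiles of 28.7 and 616 CPM. *Ibsp* and *Spp1* lie within 141.9 kb of chromosome 5 (mm9) and correlated at a rho of 0.091. Matrix genes of the same set were *Clu*, *Angptl7*, *Spon2*, *Postn* and *Dcn*, with ratios from 5.07 for *Dcn* to 10.7 for *Clu*. *Sostdc1*, an antagonist of BMP and Wnt ligands, had a ratio of 9.12 and ran from 2.59 to 5801 CPM.

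Some leading genes had a ratio over 3 in both number ranges. Cells numbered 1 to 48 had 432 genes over 3 and cells above 48 had 701, with 77 genes in both. The overlap that lists of these sizes share by size alone was not computed, so 77 is not read as likeness of the ranges. For numbers 1 to 48 and above 48, in that order, the ratios were 58.1 and 12.4 for *Ccl8* and 28.4 and 9.89 for *Car3*. They were 22.1 and 16.8 for *Penk*, 16.2 and 7.15 for *Acta2* and 12.9 and 10.1 for *Ibsp*. Some widespread genes had low ratios. *Twist1* had a ratio of 0.90, *Ftl1* 0.56 and *Rpl41* 0.53, while 6 of 14 fibroblast markers and 1 of 8 fibroblast transcription factors exceeded 3, the latter a share near the 9.81% of all genes.

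Some of the variable genes were high in the same cells. *Acta2*, smooth muscle actin, ran from 0 to 6002 CPM with a median of 60.9 and a ratio of 10.5, and *Myl9*, a regulatory myosin light chain, from 12.7 to 4797 CPM with a median of 227. They correlated at a rho of 0.737 over 86 cells, and *Acta2* correlated at 0.573 with *Tagln*, another actin-binding protein of contractile cells. *Igf2*, an insulin-like growth factor, ran from 17.2 to 6370 CPM with a median of 352, and *H19*, a long RNA beside it, from 117 to 6534 CPM with a median of 1047. *H19* and *Igf2* lie within 91.3 kb of chromosome 7 (mm9 149761434 to 149852721), are expressed from opposite parental alleles, and correlated at 0.744. This pair was chosen after its values were seen. *H19* also correlated with *Penk*, at 0.495. The correlations describe cells of 1 sample that share depth and library. Medians over all pairs of a list were 0.231 for the contractile genes, 0.121 for the fibroblast markers and 0.067 for the chemokines, beside 0.070 for all genes.

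**Figure D3:**
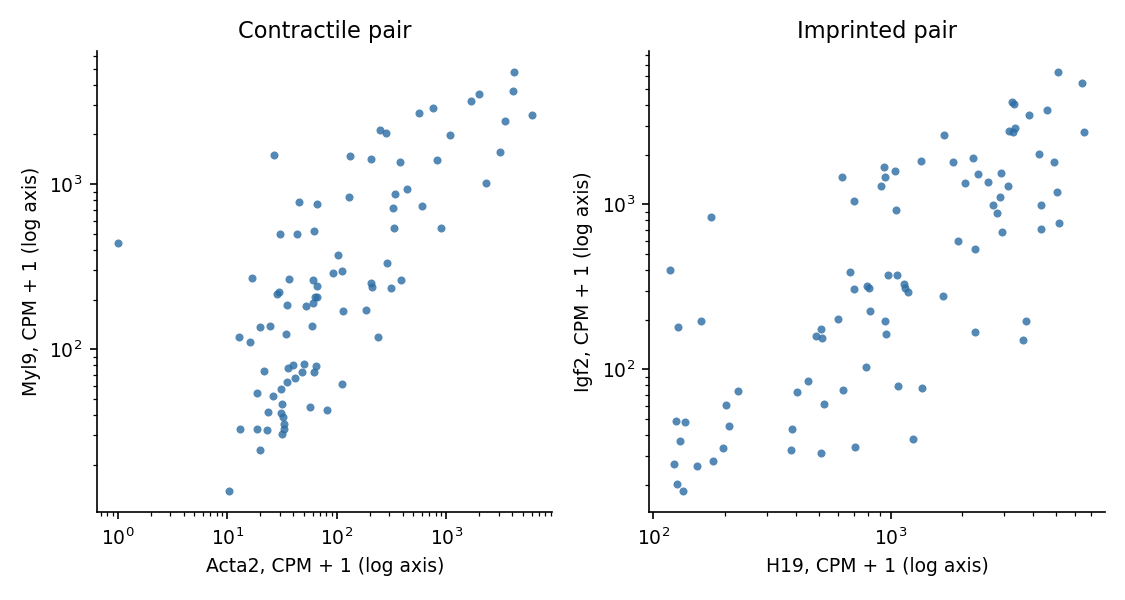
Levels of *Myl9* against *Acta2* and of *Igf2* against *H19* in the 86 day 6 cells, in CPM + 1 on log axes, each point being 1 cell. In both panels cells high in 1 gene are mostly high in the other, with rho values of 0.737 and 0.744.

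The CArG box, the site of serum response factor, was searched only in its exact form, CC and GG around a run of A or T letters. Sites with a mismatch were not counted, so a gene without the exact form may still hold a site. The stretch searched ran from 250 bases before to 50 after the start, on either strand. Of 7 contractile genes with a promoter in the RefSeq table, *Myl9* alone held the exact form, as did 1.63% of 32851 promoters. The *Acta2* stretch held no exact match. The *Myl9* promoter is shown because this gene followed *Acta2* most closely, with the CArG box in capitals, 161 bases before the start at its first base.
Myl9 promoter, GRCm38.p6 chr2:156775214-156775513, plus strand: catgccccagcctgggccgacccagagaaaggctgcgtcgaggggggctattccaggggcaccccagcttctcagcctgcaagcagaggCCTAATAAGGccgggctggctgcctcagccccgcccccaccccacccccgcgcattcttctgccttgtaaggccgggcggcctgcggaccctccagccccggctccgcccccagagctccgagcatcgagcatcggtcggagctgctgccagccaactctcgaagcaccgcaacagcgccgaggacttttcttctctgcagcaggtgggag

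Cell division separated the cells along another line. G2/M genes, which drive and carry out mitosis, were found at low levels in most cells and were abundant in a few. *Cdk1*, the mitotic kinase, ran from 0 to 1186 CPM with a median of 16.5, *Ccnb2*, its cyclin partner, from 0 to 1153 CPM with a median of 7.99, and *Ube2c*, which tags cyclins for destruction, from 0 to 1126 CPM with a median of 13.8. The variance ratio exceeded 3 for 6 of 13 measured G2/M genes and for 2 of 10 S phase genes, beside 9.81% of all measured genes. The 2 S phase genes were *Rrm2* and *Hells*. Within each list the genes moved together, with a median rho over pairs of 0.377 for G2/M and 0.217 for S phase. Of 12 G2/M genes with a promoter in the table, 9 held TTTGAA, the core of an element known to silence such genes early in the cell cycle, in either strand, against 17.9% of all promoters. The promoters of 3 of them are shown because these genes separate dividing cells from the rest, with TTTGAA, or TTCAAA where it lies on the other strand, in capitals.
Ccnb2 promoter, GRCm38.p6 chr9:70421505-70421804, minus strand: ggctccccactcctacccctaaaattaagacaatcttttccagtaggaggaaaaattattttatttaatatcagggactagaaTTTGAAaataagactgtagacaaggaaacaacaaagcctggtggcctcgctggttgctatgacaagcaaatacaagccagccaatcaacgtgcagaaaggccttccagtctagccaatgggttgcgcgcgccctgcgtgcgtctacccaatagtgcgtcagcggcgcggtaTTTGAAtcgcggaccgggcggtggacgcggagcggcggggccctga
Cdk1 promoter, GRCm38.p6 chr10:69352863-69353162, minus strand: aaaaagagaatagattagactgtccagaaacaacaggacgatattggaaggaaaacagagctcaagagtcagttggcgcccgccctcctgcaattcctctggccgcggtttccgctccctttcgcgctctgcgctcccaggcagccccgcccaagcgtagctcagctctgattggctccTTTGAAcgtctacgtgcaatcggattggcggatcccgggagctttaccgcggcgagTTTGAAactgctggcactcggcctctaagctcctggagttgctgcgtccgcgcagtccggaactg
Ube2c promoter, GRCm38.p6 chr2:164769679-164769978, plus strand: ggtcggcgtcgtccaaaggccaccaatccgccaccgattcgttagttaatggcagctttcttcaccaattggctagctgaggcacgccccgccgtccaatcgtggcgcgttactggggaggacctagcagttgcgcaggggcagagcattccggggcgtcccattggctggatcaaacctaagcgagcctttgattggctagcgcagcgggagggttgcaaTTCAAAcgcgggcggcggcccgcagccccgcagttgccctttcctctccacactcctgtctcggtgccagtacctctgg

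Summed over 20 genes each, the G2/M genes ran from 49.5 to 8072 CPM with a median of 295, and the S phase genes from 103 to 2973 CPM with a median of 424. Sums over 1000 CPM were found in 18 cells for G2/M (20.9%, interval 12.9 to 31.0%) and in 19 cells for S phase (22.1%, interval 13.9 to 32.3%), 10 cells being in both sets and 27 in either. The limit sets these counts, since no gap separates the cells in the plot of both sums. At d0 the shares over the limit were 65.3% for G2/M and 75% for S phase, at d5 both were 47.2%, and at d8 they were 19.4% and 12.9%. The day 6 shares therefore lay below those of d0 and d5 and near those of d8. Of cells numbered 1 to 48, 8 of 41 passed either limit, and of those above 48, 19 of 45.

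**Figure D4:**
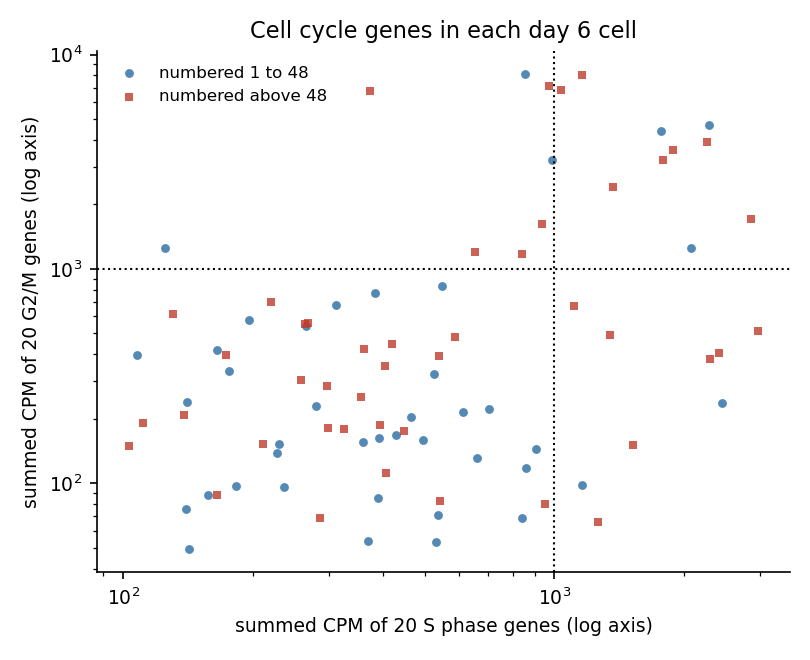
Summed level of 20 G2/M genes against that of 20 S phase genes in each day 6 cell, in CPM on log axes, with dotted lines at 1000 CPM. Circles are cells numbered 1 to 48 and squares those above 48, and 10 cells lie beyond both lines.

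Genes outside the cell cycle were set beside the same limits. *Dcn*, a proteoglycan of resting matrix, had a median of 575 CPM in the 27 cells over a limit and 1157 CPM in the other 59, and *Dpt*, dermatopontin, had 16.4 and 60.1 CPM. Other matrix genes did not share this order, since *Col1a1* had medians of 2596 and 2301 CPM, with a log2 difference of -0.08, and *Cpxm1* had a log2 difference of -0.04. *Acta2* had 202 and 59.5 CPM, *Igf2* 985 and 293 CPM, and *Penk* 587 and 279 CPM. Quartile ranges overlapped for each of these genes (for *Dcn*, 202 to 1398 CPM and 321 to 2355 CPM). For *Ccl8* the medians were 32.3 and 36.7 CPM, with upper quartiles of 59.5 and 123 CPM and a difference of mean log2(CPM + 1) of -0.72, beside -0.68 for *Dcn*. The medians of *Ibsp* were 97.9 and 114 CPM. Median depth was 398835 UMIs in the cells over a limit and 416894 in the others.

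Components of the 1000 genes with the largest variance ratio ordered the same variation. Component 1 held 5.95% of the variance and followed the number of genes detected (rho 0.824) and UMIs (rho 0.607). Its ends were led by *Ranbp3* and *Nutf2*, of nuclear transport, on the side of deep cells and by *Akap5* and *Actb* on the other. Component 2 held 3.29%, correlated at 0.565 with the G2/M sum and -0.415 with the fibroblast sum, and set *Cenpw*, *Cdk1*, *Ube2c*, *Spc25*, *Ccnb2*, *Top2a*, *Cdc20* and *Hmmr* against *Dhrs3*, *Angptl7*, *Mgst1*, *Fgl2*, *Maged1*, *Itm2b*, *Cpxm1* and *Dpt*. Component 3 held 2.72% and correlated at 0.657 with the contractile sum. All these sums contain genes that entered the components.

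Against neighbouring days, the genes compared were those whose mean log2(CPM + 1) reached 1 in 1 of the groups or both, and a difference over 1, a change of 2-fold on that scale, was counted. The scale understates changes of low genes. Of 9868 genes compared with d5, 4.05% were higher and 29.1% lower at day 6. Of 9337 compared with d8, 2.87% were higher and 6.91% lower, and of 9436 compared with d0, 14.9% were higher and 17.9% lower. The median of all genes was itself shifted by -0.61 against d5, -0.17 against d8 and -0.09 against d0. Scaling by median-of-ratios size factors moved these medians to -0.53, -0.11 and 0.05, and pooling the UMIs of all cells moved them to -0.05, 0.05 and 0.16. With pooled UMIs, 43.8% of the genes past 1 were higher than at d5, in place of 12.2%, 57.7% in place of 29.4% than at d8, and 59.7% in place of 45.4% than at d0. Differences below are best read against these shifts. In counts from a single pool of cells, day cannot be told apart from library.

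*Adh1*, an alcohol dehydrogenase that also oxidises retinol, had UMIs in 12 of 36 cells at d5, with a maximum of 551 CPM, and in all 86 cells at day 6, from 13.9 to 3282 CPM with a median of 92.0, a difference of 5.97 that was larger than that of any other gene compared with d5. The groups overlapped, since d5 cells with *Adh1* reached into the range of day 6. For *Adh1*, as for *Ccl8*, a spread of reads from the highest cells was not tested. *Sostdc1* was higher by 4.87, *Cpxm1*, an inactive carboxypeptidase, by 4.61, *Gstm2*, a glutathione transferase, by 4.57 and *Ccl8* by 4.22. With pooled UMIs the order changed, with 2.46 for *Adh1*, 3.74 for *Sostdc1*, 2.82 for *Cpxm1*, 3.07 for *Gstm2*, 5.11 for *Ccl8* and 4.99 for *Car3*. The lowest against d5 were *Col26a1* (-4.51), *Ucp2*, of the inner mitochondrial membrane (-3.77), *Cd24a*, a surface glycoprotein (-3.73), *Sp5*, a direct Wnt target (-3.57), and *Fos*, an immediate early factor (-3.48). *Sp5* had UMIs in 30 of 36 cells at d5 with a median of 35.8 CPM, and in 24 of 86 cells at day 6 with a median of 0. *Cd24a* had a median of 2.99 CPM at day 6, with 4326 CPM in cell 26.

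Against d8, the highest were *Ibsp* (4.10), *Spp1* (3.37), *Ccl8* (3.34), *Frem1*, a basement membrane protein (3.13), and *Car3* (3.11). *Ibsp* was 1.67 higher than at d5, but with pooled UMIs this became -0.49. *Spp1* had a median of 25.8 CPM at day 6 and held most of its sum in 1 cell. At the other end were *Sst* (-5.72), *Fos* (-4.45), *Cryaa*, a lens crystallin (-3.93), *Igfbp2*, which binds insulin-like growth factors (-3.78), and *Nppc*, a natriuretic peptide (-3.64). *Igfbp2* had a median of 5.87 CPM at day 6 and 111 CPM at d8. Against d0, *Pla2g7* (6.70), *Ibsp* (6.09), *Crabp2* (5.96), *Gria1* (5.94) and *Tmem132c* (5.86) were the highest. *Pla2g7*, a secreted phospholipase, ran from 133 to 3760 CPM at day 6 and was highest at 65.7 CPM at d0, so the groups did not overlap. The lowest against d0 were *Ctgf* (-6.09), *Tm4sf1* (-5.71), *Plaur* (-5.59), *Tnfrsf12a* (-5.51) and *Ccl2* (-5.25).

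The lists of pathways that the cocktail acts on are read against those shares. Of 18 Wnt/beta-catenin targets compared with d5, 1 was higher and 12 were lower, beside 4.05% and 29.1% of all genes, and the list's median difference was -1.18 beside -0.61. *Notum*, which inactivates Wnt ligands, differed by -2.29, *Nkd1*, an inhibitor of Dishevelled, by -1.46 and *Axin2*, a scaffold of the destruction complex, by -1.25, while *Sfrp1*, a Wnt-binding antagonist, was 2.65 higher. With pooled UMIs *Notum* (-1.52) and *Sfrp1* (2.39) were still past 1, whereas *Nkd1* (-0.92) and *Axin2* (-0.65) were not. Against d0, 9 of 14 targets were higher and 1 was lower, beside 14.9% and 17.9% of all genes. *Nkd1* had a median of 178 CPM at day 6, 558 CPM at d5 and 9.75 CPM at d0. Of 11 retinoic acid genes, 9 were higher than at d0 and 0 were lower, with 5.66 for *Cyp26b1*, which degrades retinoic acid, and 3.99 for *Dhrs3*, which reduces retinal. Against d5, 2 of them were higher (*Crabp2* and *Cyp26b1*) and 2 lower, beside 4.05% and 29.1% of all genes.

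Of 15 genes of BMP signalling compared with d5, 1 was higher and 8 were lower, beside 4.05% and 29.1% of all genes. The list's median difference was -1.03 beside -0.61 for all genes. *Id1*, a direct BMP target, had a median of 225 CPM at day 6 and 1012 CPM at d5, a difference of -2.15. *Bmp2*, a ligand, had UMIs in 36 cells, a maximum of 404 CPM and a median of 0, and differed by -2.70 from d5, where its median was 21.1 CPM. Contractile and TGF-beta genes were lower than at d0 for 12 of 17, with *Tagln* at -4.82 and *Acta2* at -4.40, and 1 was higher. The shares of all genes were 17.9% lower and 14.9% higher. Against d8, 8 of 16 were lower and 0 higher, beside 6.91% and 2.87% of all genes. Against d5, 2 of 15 were higher and 2 lower, beside 4.05% and 29.1%.

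Immediate early genes, which respond within minutes to handling of cells as well as to signals, were low at day 6. Of 11 compared with d8, 10 were lower and 0 higher, beside 6.91% and 2.87% of all genes, and of 12 compared with d5, 7 were lower and 0 higher, beside 29.1% and 4.05%. *Fos* had a median of 5.28 CPM, *Egr1* of 0.78 CPM and *Junb* of 24.6 CPM at day 6, whereas *Egr1* had 38.4 CPM at d5 and *Junb* 119 CPM at d8. The part of cell handling in these differences was not tested. Cell cycle genes were lower than at d5 for 19 of 20 G2/M and 11 of 20 S phase genes, beside 29.1% of all genes, and lower than at d8 for 1 of 20 and 0 of 15, beside 6.91%. The fibroblast markers were higher than at d5 for 7 of 14 and lower for 1, beside 4.05% and 29.1% of all genes. *Dcn* was 2.96 and *Lum* 2.49 higher, whereas *Thy1* differed by -1.19. Of the regulators, *Osr1* differed by 2.30 from d5 and by -1.97 from d8, *Twist2* by -1.37 from d5 (-0.42 with pooled UMIs), and *Prrx1* differed by 0.15 and 0.21 from these days.

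Transcripts of the XEN regulators *Sox17*, *Sall4* and *Gata4* were rare at day 6 and concentrated in single cells, and *Foxa2* was not found. *Sox17* had UMIs in 13 of 86 cells (15.1%, interval 8.30 to 24.5%). Cell 94 had 156 CPM (116 UMIs, interval 95.9 to 139) and cell 42 had 103 CPM (27 UMIs, interval 17.8 to 39.3), which are 15.9% and 10.5% of the d20 mean of 982 CPM. The other 11 cells had at most 2 UMIs each at a median depth of 1645800 UMIs. After thinning each cell to 50000 UMIs, 3 of 81 cells (3.70%) had a UMI, so the unthinned share rests on the deep cells. At d0, 1 of 72 cells had a *Sox17* UMI. Of cells numbered 1 to 48, 22 of 40 had one at d4 and 32 of 42 at d8, against 6 of 41 at day 6. Above 48 the counts were 7 of 37 at d4, 5 of 20 at d8 and 7 of 45 at day 6. The highest cells had 236 CPM at d4 and 561 CPM at d8. Median depth of cells numbered 1 to 48 was 778218 UMIs at d4, 691657 at d8 and 489269 at day 6.

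*Sall4* was found in 20 cells (23.3%, interval 14.8 to 33.6%), and in 6 of 81 (7.41%) after thinning. Cells 73 and 68 had 446 CPM (34 UMIs) and 173 CPM (146 UMIs), both above the d20 mean of 113 CPM. Cells 92 and 74 had 31.9 CPM (79 UMIs) and 20.4 CPM (51 UMIs), and the other 16 had at most 3 UMIs each. At d0, 0 of 72 cells had a *Sall4* UMI. *Gata4* had UMIs in 3 cells, the highest being cell 52 with 48.9 CPM from 2 UMIs, and *Foxa2* in 0 of 86 cells. For *Foxa2* the exact interval runs from 0 to 4.20%. It limits the share of cells with a UMI rather than of cells that express *Foxa2*, which had UMIs in 18 of 38 cells at d20. *Gata6*, also active in fibroblasts, was more widespread, with UMIs in 44 cells and at least 20 CPM in 15. No cell reached 20 CPM of both *Sox17* and *Sall4*, and 6 cells had a UMI of each.

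The cells with *Sox17* shared few other XEN transcripts. *Krt18*, an epithelial keratin that is high in XEN cells (780 CPM at d20), was highest in the same cells, with 1465 CPM (385 UMIs) in cell 42 and 852 CPM (634 UMIs) in cell 94, against a median of 2.59 CPM. *Krt18* was also present at d0, with a mean of 36.6 CPM and UMIs in 35 of 72 cells, and reached 2877 CPM at d4. Cells 42 and 94 were chosen as the 2 highest in *Sox17*. A search over 11897 genes, made after these values were seen, found 5 genes with the same 2 highest cells. These were *Krt18*, *Lyar*, *R74862*, *Scrn1* and *Sox17*, the last by that choice. How many genes other pairs of cells share in this way was not computed, so the list is not a signature of *Sox17* cells. Mean levels at d20 and d0 were 231 and 270 CPM for *Lyar*, 10.1 and 8.85 CPM for *R74862* and 0.0546 and 28.1 CPM for *Scrn1*. *Sox7*, a relative of *Sox17*, had UMIs in 21 cells and at least 20 CPM in 6. It was highest in cell 94 at 87.4 CPM (65 UMIs) and had no UMI in cell 42. *Krt8*, the usual partner of *Krt18*, reached at most 3.83 CPM in any day 6 cell, and *Epcam* had no UMI. The fibroblast sums of cells 94 and 42 ranked 80th and 77th of 86, at 5304 and 5740 CPM. Both cells were over both cell cycle limits, with S phase sums of 1884 and 1773 CPM and G2/M sums of 3588 and 4413 CPM, and the part of the cell cycle in their fibroblast ranks was not tested. Those of the cells with *Sall4* did not stand at that end, with ranks of 4 for cell 92, 28 for cell 73 and 53 for cell 68.

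**Figure D5:**
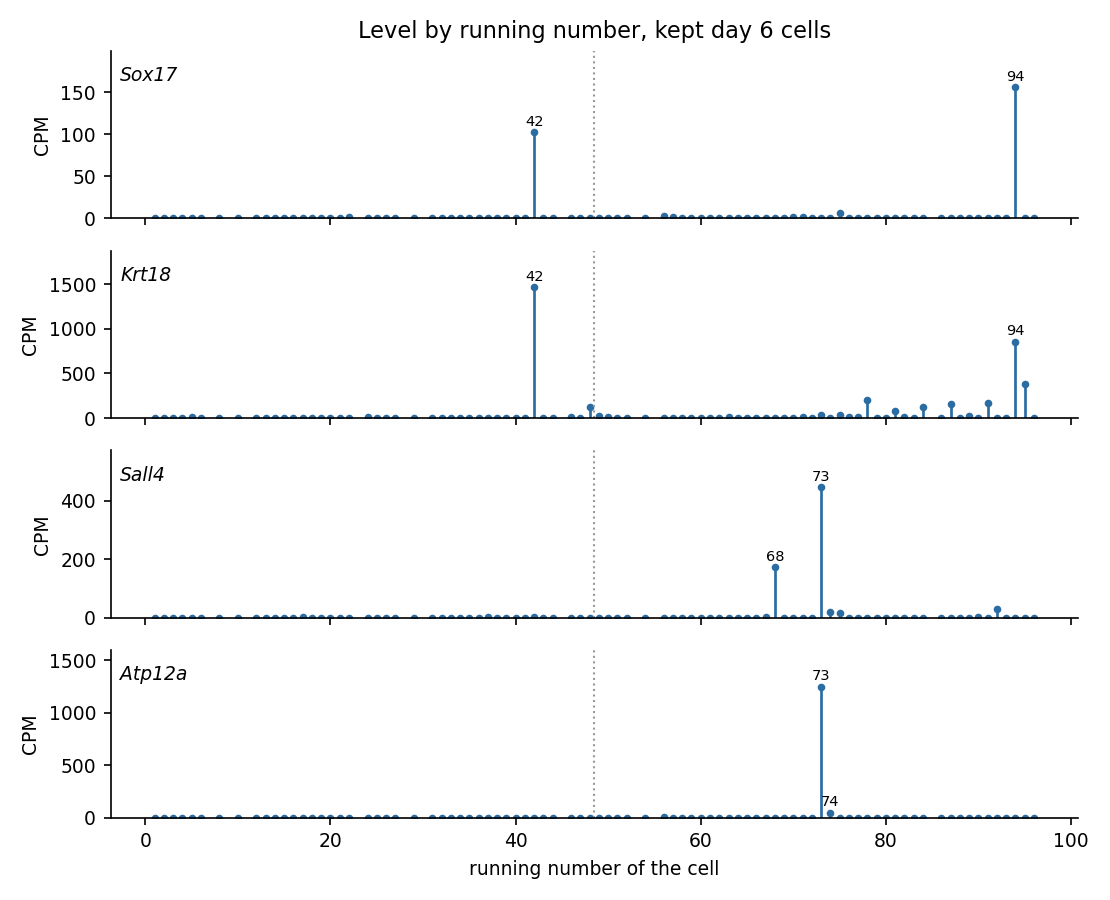
Levels of *Sox17*, *Krt18*, *Sall4* and *Atp12a* in CPM along the running number of the day 6 cells, each point being 1 cell and the dotted line separating numbers 1 to 48 from those above. *Sox17* and *Krt18* are highest in cells 42 and 94, *Sall4* in cells 73 and 68, and *Atp12a* in cells 73 and 74.

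Values that bear on carry-over of RNA or reads were taken from a panel of XEN genes and from cells of adjacent number. The panel, made up of the 20 most abundant d20 genes that were under 1% of that level at d0, *Sox17* among them, summed to 31027 CPM at d20, led by *S100g*. The panel stood at a median of 0.512% of its d20 level in day 6 cells, from 0 to 4.71%, and at 0.190% in d5 and 0.333% in d8 cells. Much of it came from genes found in most day 6 cells. *Fam105a* had UMIs in 80 cells and a mean of 26.2% of its d20 level. *Hopx* had UMIs in 50 cells and 19.4%, with 1392 CPM in cell 82. *S100g*, with 18342 CPM at d20 and 0 at d0, had UMIs in 64 day 6 cells at a median of 3.01 CPM. Without *Sox17*, an alternative chosen after seeing the data, the median was 0.511%, and cells 42 and 94 had 0.544% and 0.188% of the remaining 19 genes, ranking 42nd and 63rd of 86, while their *Sox17* stood at 10.5% and 15.9% of its d20 mean. Cells 73 and 68 had 0.655% and 0.324% of the 19 genes. Whether these transcripts were the cells' own or came from XEN cells was not tested. The panel therefore does not measure the amount of RNA from XEN cells, and carry-over from such cells was not tested further.

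Neighbours by number gave different pictures for these cells. The cells within 2 numbers of 42 had 0 UMIs of *Sox17* and *Krt18*, and those within 2 numbers of 94 had 0 UMIs of *Sox17*, although cell 95 had 379 CPM (27 UMIs) of *Krt18* and cell 92 had 12.1 CPM (30 UMIs) of *Sox7*, 13.9% of its level in cell 94. The neighbours of cell 68 had 1 UMI of *Sall4*, in cell 67. Cell 74, next to cell 73, had both of its leading genes, with *Sall4* at 4.57% and *Atp12a* at 3.88% of their CPM in cell 73. In UMIs cell 74 had more of each than cell 73 (51 against 34 and 121 against 95), at a depth of 2502826 against 76180 UMIs. Cell 75 had 3 UMIs of *Sall4* and 0 of *Atp12a*.

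Other genes particular to cell 73 had a wide range of levels in cell 74. Of 15 genes with at least 10 UMIs in cell 73 and a level at least 5 times that of any cell but 74, 4 had 0 UMIs in cell 74, namely *Adamts20*, *B3galt1*, *Mpp2* and *Fgf10*. *Cutc* at 3.10% and *Dgka* at 4.26% of their CPM in cell 73 lay near *Atp12a* and *Sall4*, with *Stim2* at 1.99%, *Zfp953* at 2.09% and *Nr6a1* at 7.42%. *Eno3* stood at 0.0845%, *Itga4* at 20.4% and *Slc16a11* at 28.8%. Over 2142 sparse genes, the median cosine between cells was 0.0194 for 75 pairs next to each other by number, 0.0230 at a distance of 2, and 0.0163 for 2867 pairs at 12 or more. The value for cells 73 and 74 was 0.0494, from 4 shared genes (*Atp12a*, *Ntn1*, *Pex11a* and *Slc4a3*). Other pairs reached higher values. The upper quartile of pairs next to each other was 0.0377 and their highest value 0.0929, and the highest at 12 or more was 0.193. The running number may not follow the order of handling, so exchange between cells that were handled together under other numbers was not tested.

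Many further genes were found in 1 to 3 cells only. Over 100 CPM in a cell and in at most 3 cells were 91 genes. *Rgs22*, a regulator of G protein signalling, had 800 CPM in cell 50. *Pou3f1*, a POU factor of epiblast and neural cells, had 379 CPM (27 UMIs) in cell 95, and *Adgrf4*, an adhesion receptor, had 297 CPM (78 UMIs) in cell 42, the cell with *Sox17*. *Tnfrsf9* had 1652 CPM (49 UMIs) in cell 78 and *Pcdh12* had 763 CPM (27 UMIs) in cell 26, where spike-ins made up 26.8% and 76.3% of counts.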

How the data were processed

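Per the labels and the study's methods, the authors assigned reads to cells by barcode and, after trimming and alignment to mm9 transcripts, counted each UMI once, and the deposited values are whole-number counts per gene and cell. The aligner is not given in the sources used here. The table held 23201 gene entries, 92 ERCC rows and 808 cells. Dates stood in place of 26 gene names, and 4 entries of doubled names were left out. The 10 samples have no map to cells, so 0 were placed in groups and no test was run.

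CPM exclude ERCC rows. Differences are of mean log2(CPM + 1). The variance ratio compares each gene with the 101 genes nearest in mean. Named genes were the given markers, XEN and fibroblast regulators, the most abundant, most variable and most different genes, the leading genes of components and likeness, leading members of lists, and genes of over 100 CPM in at most 3 cells. Members and lists were chosen with earlier results of these data known. Functions were tested on simulated data. Alternatives covered the filter on cells, scaling, pseudocount, thinning, number ranges, single cells and limits. Leaving out cells over 20% ERCC was chosen after seeing the data. RefSeq promoters (GRCm38.p6) were matched by symbol. Python 3.11.15, numpy 2.4.6, pandas 2.3.3 and scipy 1.17.1 were used.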

Additional observations from a re-analysis of the deposited data

How the results depend on the processing

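No paired analysis was possible because cell names carry no sample. Of the summary values, 84 recomputed values kept within 1.5 times or within counting error and 22 moved. These are counts and shares, which have no sign. The share of cells with *Sox17* moved to 3.70% after thinning and to 2.33% at 20 CPM or more, and that with *Sall4* to 7.41% and 4.65%. With a pseudocount of 10, higher and lower genes numbered 148 and 556 against d5, 35 and 96 against d8, and 467 and 685 against d0. In place of 400 and 2869 against d5, 268 and 645 against d8 and 1404 and 1689 against d0, pooled UMIs gave 1321 and 1692 against d5, 1312 and 961 against d8 and 2902 and 1955 against d0, so that against d8 and d0 higher genes outnumbered lower ones, the opposite of the values reported, and *Ibsp* against d5 turned from 1.67 to -0.49. A filter at a mean of 3 left 171 genes higher than d8 and 906 higher than d0. Genes with a variance ratio over 3 numbered 237 from a mean of 50 CPM, 27 on the log2 scale and 198 without the highest cell of each gene. Limits of 500 and 2000 CPM gave 39 and 8 S phase cells, and a limit of 500 CPM gave 29 G2/M cells. Why these values moved was not tested. Of 42 recomputed marker means, 22 moved by over 1.5 times, most of them of *Trpc5*, *Lcat* and *Atp12a*, which rest on single cells. With 1 sample the data give no error between cultures, and at depths under 50000 UMIs, as in 5 of the 86 cells, a rare transcript can be missed.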
